A study of Mus musculus with 6 samples.

Results

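The milk fat globule membrane is the coat that a lactating luminal cell wraps around each fat droplet as the droplet leaves through the apical surface. The 6 genes described here encode its main proteins and were taken by symbol, Mfge8, Btn1a1, Xdh, Plin2, Muc1 and Muc15, from the authors' deposited table of 16701 genes. All 6 symbols were listed. The table compares luminal epithelial cells of the mammary gland of Ocln knockout mice (Ocln-/-, 3 libraries) with those of wild-type controls (WT, 3 libraries), both taken at 7 weeks of age, and polyadenylated RNA was sequenced. Ocln encodes occludin, a membrane protein of tight junctions. The labels name no Cre, transgene or treatment, and the sources used here do not give the strain, the sex, any breeding, the deleted exons, the way the luminal cells were isolated or whether each library came from its own mouse. The p-values set the difference between the genotypes against the spread between libraries only, and that spread may be partly technical.

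In a secreting cell, cytoplasmic lipid droplets coated with perilipin 2 move to the apical plasma membrane. There butyrophilin, the product of Btn1a1, and xanthine dehydrogenase, the product of Xdh, join the droplet to the membrane, which then envelops it. MFG-E8 is a secreted glycoprotein that binds phosphatidylserine and, through an RGD motif, integrins, and it is known for bridging dying cells to phagocytes as well as for coating fat globules. MUC1 and MUC15 are heavily glycosylated transmembrane mucins of the apical surface that end up on the globule. Most of these genes are known to be induced strongly in pregnancy and lactation, and several are also active in the virgin gland.

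The 2 mucin genes and Mfge8 rose in the knockout, while the 3 genes that coat the droplet and dock it to the membrane did not pass the test. That split rests on the threshold, and the difference between the 2 sets was not tested. The 95 percent interval of Btn1a1, a docking gene, lies above 0 and overlaps those of the 3 genes that rose. Muc1 rose 2.21-fold, Muc15 2.12-fold and Mfge8 1.93-fold in the authors' deposited table, against 1.69-fold for Btn1a1, 1.11-fold for Xdh and 0.821-fold for Plin2. So 3 of 6 passed a DESeq2 adjusted p of 0.05 as higher and 0 as lower. Of all listed genes 1.08 percent passed, 0.808 percent as higher and 0.275 percent as lower. The 6 genes were chosen with earlier results of these data known, so their count beside these shares is not a test. Among the 1654 genes with a mean level at or above the lowest of the 6, which have more precise fold changes than low genes, 1.63 percent passed as higher. At an unadjusted DESeq2 p under 0.05, 4 of the 6 were higher and 0 lower, beside 5.23 percent and 3.83 percent of all genes. The median log2 fold change of the 6 was 0.85, beside -0.01 over all genes. In a bulk preparation, more cells of a type and more RNA per cell cannot be told apart.

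**Figure D1:**
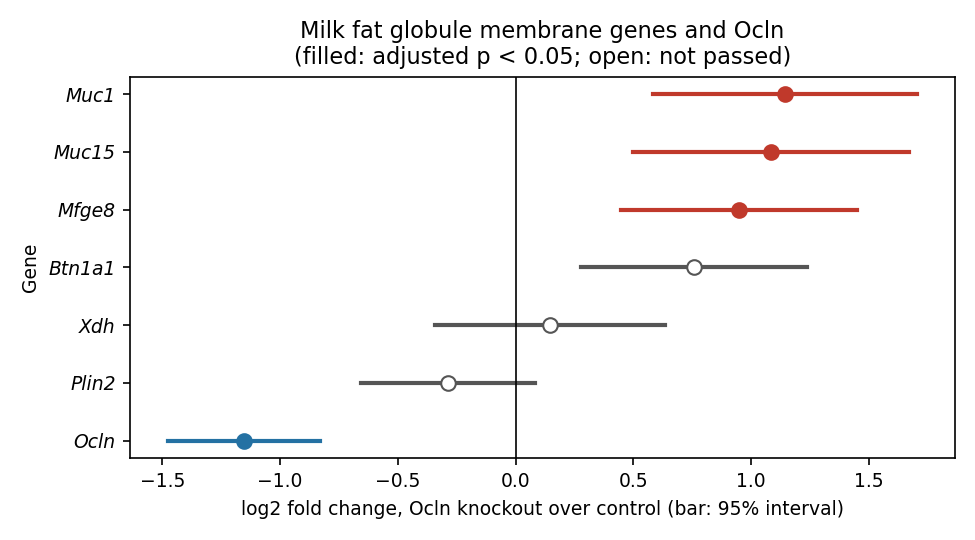
Log2 fold change of Ocln knockout over control (x axis) for the 6 milk fat globule membrane genes and Ocln (y axis), with points at the deposited value and bars for the 95 percent interval, taken from the SE on the log2 scale. Muc1, Muc15 and Mfge8 lie between 0.95 and 1.15 with bars above 0, the bar of Btn1a1 is also above 0 but its adjusted p did not pass, and the bars of Xdh and Plin2 cross 0.

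Values per library were not analysed here, so each gene is described by the authors' mean over all libraries, in normalized counts, and by their log2 fold change with its standard error (SE). Where a level in each genotype is given below, it was computed from that mean and that fold change on the assumption that the mean weighs both genotypes equally. It carries no error of its own. Ocln, the targeted gene, was lower in the knockout in the authors' deposited table (log2 fold change -1.15 ± 0.16 SE, DESeq2 adjusted p = 4.36e-09), or 44.9 percent of the control level. The labelled cell type was checked on 9 luminal epithelial markers, all listed, with mean levels from 5649 to 84084 normalized counts in the authors' deposited table. Of these luminal markers 0 passed in either direction (1 higher and 1 lower at an unadjusted DESeq2 p under 0.05), and their median log2 fold change was 0.00.

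Sequences before the start site are shown for the genes among the 6 that the RefSeq promoter table holds, 2 that rose and 1 that did not pass, so that their differing layout can be read beside the values. RefSeq (GRCm38.p6) gives 300 bases around the start of Mfge8, Muc1 and Plin2, of which the 250 before the start are printed, 5′ to 3′ on the strand of the gene. Capitals mark matches to any of 8 short motifs searched on both strands of the whole window. They are chr7:79149061-79149310, minus strand, for Mfge8; chr3:89228806-89229055, plus strand, for Muc1; and chr4:86670060-86670309, minus strand, for Plin2.
Mfge8: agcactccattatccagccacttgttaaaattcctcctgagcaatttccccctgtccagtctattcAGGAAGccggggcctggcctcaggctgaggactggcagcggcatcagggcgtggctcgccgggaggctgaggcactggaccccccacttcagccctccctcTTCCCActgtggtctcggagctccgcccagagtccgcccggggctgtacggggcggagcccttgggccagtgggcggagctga
Muc1: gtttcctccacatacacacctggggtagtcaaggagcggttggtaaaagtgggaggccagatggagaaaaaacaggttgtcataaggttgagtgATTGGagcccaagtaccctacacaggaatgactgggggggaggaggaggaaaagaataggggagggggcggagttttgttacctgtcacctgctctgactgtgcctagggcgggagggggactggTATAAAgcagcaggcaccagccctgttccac
Plin2: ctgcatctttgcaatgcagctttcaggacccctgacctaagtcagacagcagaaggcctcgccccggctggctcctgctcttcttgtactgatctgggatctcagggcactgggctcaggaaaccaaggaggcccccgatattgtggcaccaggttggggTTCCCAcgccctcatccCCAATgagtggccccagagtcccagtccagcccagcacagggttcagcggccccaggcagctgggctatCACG

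The Muc1 window holds the TATA box letters TATAAA, beginning at base -31 before the start site, and 13.6 percent of the 32851 RefSeq windows hold them anywhere on either strand. The same letters are not in the windows of Mfge8 and Plin2. Mfge8 has 64.3 percent G and C and 17 CpG pairs over its 300 bases, and Muc1 has 55.7 percent and 6, beside medians of 52.7 percent and 7 over all windows. Plin2 lies between them at 60.7 percent and 10 CpG pairs. The letters TGGGAA, a core of Rbpj sites, stand on the opposite strand of both Mfge8 (from -83) and Plin2 (from -90), and 25.6 percent of all windows have them. An Ets core, AGGAAG, stands at -184 of Mfge8, and 35.4 percent of all windows have it. CCAAT, the NF-Y box, stands in Muc1 (opposite strand, from -156) and Plin2 (from -73), and in 37.4 percent of all windows. The E-box CACGTG of Plin2, which 7.15 percent of windows hold, crosses the start site, so that only its first bases are in the printed stretch. The Stat letters TTCNNNGAA (8.30 percent of all windows), the C/EBP letters TTGCNNAA (10.8 percent) and the glucocorticoid receptor letters TGTTCT (19.0 percent) had 0 matches in these 3 windows. None of the matches printed overlaps another. These matches are letters, not sites shown to be bound, and the rising genes Mfge8 and Muc1 share none of the 8 motifs with each other.

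Of the 3 milk fat globule membrane genes that rose, Mfge8 had the highest mean level. Its mean level in the authors' deposited table was 58132 normalized counts, the 30th highest of all listed genes, and it made up 67.8 percent of the summed mean level of the 6 genes. Per kilobase of exon (4694 bases in the union of its GENCODE exons) the mean level was 12384. The log2 fold change in the authors' deposited table was 0.95 ± 0.26 (SE, 95 percent interval 0.45 to 1.45, DESeq2 adjusted p = 0.0249), a fold of 1.93 with an interval of 1.36 to 2.73. The corresponding levels are 39662 in controls and 76602 in the knockout, so that Mfge8 alone accounts for 74.2 percent of the net difference in summed level over the 6 genes. The authors list Mfge8 as Stable. The genes they call Up or Down have log2 fold changes of at least 1.014 in size, and those they list as Stable at an unadjusted p under 0.05 reach at most 1.012. Among the 100 listed genes with the highest mean level, 4 passed, all of them higher, Ltf, Thbs1, Mfge8 and Trf. The gene lies on chromosome 7 from 79133768 to 79149060 on GRCm38, minus strand.

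**Figure D2:**
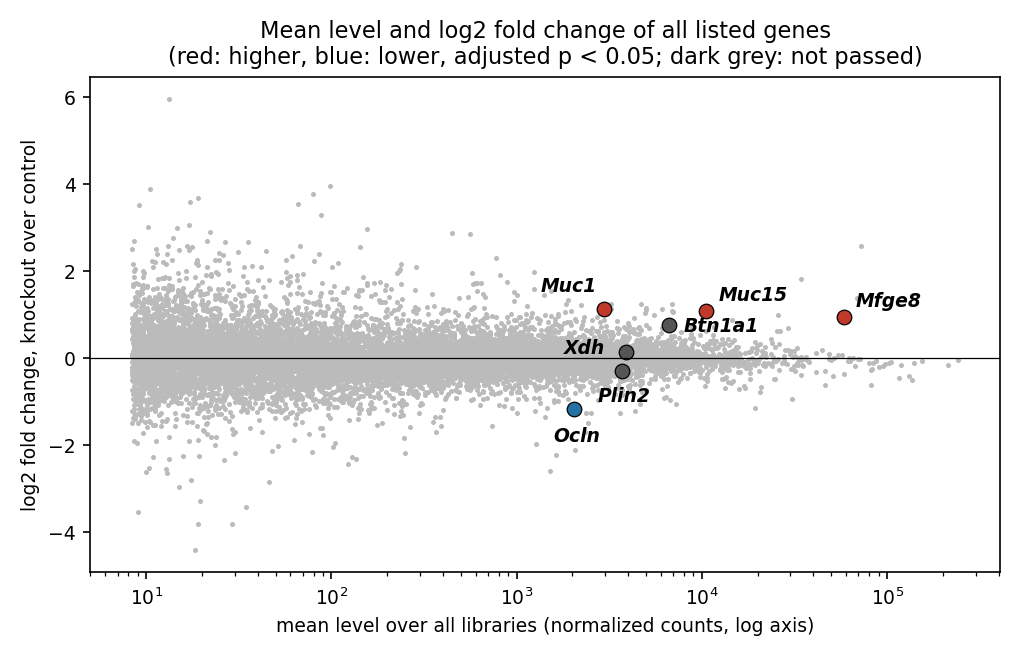
Mean level over all libraries in normalized counts (x axis, log scale) against log2 fold change of knockout over control (y axis) for all listed genes in grey, with the 6 genes and Ocln marked. Mfge8 stands at 58132 normalized counts and a log2 fold change of 0.95, and the other 5 milk fat globule membrane genes lie between 2944 and 10509.

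Muc1 had the largest fold of the 6 and the lowest mean level. It stood at 2944 normalized counts in the authors' deposited table, with a log2 fold change of 1.15 ± 0.29 (SE, 95 percent interval 0.58 to 1.71, DESeq2 adjusted p = 0.00993). The fold of 2.21 has an interval of 1.50 to 3.26 and corresponds to 1833 normalized counts in controls and 4055 in the knockout. By fold, Muc1 ranked 370th from the top of all listed genes, above 97.8 percent of them. Its exons are short, 2346 bases in union, so per kilobase its mean level of 1255 exceeded those of Plin2 and Xdh. Muc1 lies on chromosome 3 from 89229057 to 89233381, plus strand.

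Muc15, the second mucin, was the second most abundant of the 6 genes. Its mean level in the authors' deposited table was 10509 normalized counts, or 2944 per kilobase of exon, above that of Muc1 on both scales. Its log2 fold change there was 1.09 ± 0.30 (SE, 95 percent interval 0.50 to 1.67, DESeq2 adjusted p = 0.0319), a fold of 2.12 with an interval of 1.41 to 3.19. That corresponds to 6732 normalized counts in controls and 14285 in the knockout. The authors call both mucins Up, which are 2 of the 6 genes beside 1.80 percent of all listed genes with that call. Muc15 lies on chromosome 2 from 110721340 to 110739527, plus strand, inside Ano3, a gene on the minus strand whose annotated exons overlap those of Muc15. Ano3 is not among the listed genes, whose lowest mean level is 8.35 normalized counts. Since the counting is not stated to use strand, reads of the 2 genes where their exons overlap cannot be told apart.

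Other mucins did not pass the DESeq2 adjusted p of 0.05. Of 20 other mucin genes 8 were listed, 0 passed in either direction, and at an unadjusted DESeq2 p under 0.05 1 was higher and 0 lower, beside 5.23 and 3.83 percent of all genes. That one was Muc4, a large membrane mucin, at 1.57 ± 0.48 (SE, DESeq2 adjusted p = 0.0746) with a mean level of 141 normalized counts in the authors' deposited table, where the authors call it Up like Muc1 and Muc15. Muc13, another membrane mucin, had a value as large but a wide error, 1.57 ± 0.996 (DESeq2 adjusted p = 0.703) in the authors' deposited table. Over the 8 genes the median log2 fold change was 0.22. The listed mucins with the highest mean level were Cd164, the gene of endolyn, at -0.19 ± 0.26 (DESeq2 adjusted p = 0.929) and Muc20 at 0.60 ± 0.75 (DESeq2 adjusted p = 0.917) in the authors' deposited table. The SE of Muc20 shows how little this comparison can say of that gene. Of 21 listed genes of mucin-type O-glycosylation, the enzymes that build the sugar chains of mucins, 0 passed, and the median log2 fold change was -0.04, with 1 gene higher and 0 lower at an unadjusted DESeq2 p under 0.05. St3gal1, a sialyltransferase gene (-0.28 ± 0.33), and Galnt3, which starts the chains (0.03 ± 0.15), had the highest mean levels of that list in the authors' deposited table.

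Genes of MFG-E8 receptors and of dead-cell engulfment in general did not pass either. Of the 18 listed, 0 passed. At an unadjusted DESeq2 p under 0.05 0 were higher and 1 lower, beside 5.23 and 3.83 percent of all genes. That one was Edil3, the closest relative of Mfge8, at -1.47 ± 0.64 (SE, DESeq2 adjusted p = 0.42) and a mean level of only 17.6 normalized counts in the authors' deposited table, where the authors call it Down. The list's highest mean levels were those of Gas6, a ligand of the TAM receptors (0.45 ± 0.28), and the GTPase gene Rac1 (-0.11 ± 0.17) in the authors' deposited table. Over the list the median log2 fold change was 0.14.

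Of the docking machinery, Btn1a1 came closest to the threshold. Butyrophilin is an immunoglobulin-like transmembrane protein whose cytoplasmic part binds xanthine dehydrogenase. Its gene had a mean level of 6606 normalized counts, or 1604 per kilobase, in the authors' deposited table, whose log2 fold change for it is 0.76 ± 0.24 (SE, 95 percent interval 0.28 to 1.24). The DESeq2 adjusted p was 0.11 and the unadjusted p 0.00196, so Btn1a1 did not pass over all genes, although its interval, which is not adjusted for the number of genes, lies above 0. The levels that correspond are 4911 normalized counts in controls and 8302 in the knockout. Btn1a1 lies on chromosome 13 from 23456992 to 23465901, minus strand, on the same chromosome as Ocln and 77.0 Mb from it.

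Only 4 of 11 other genes of the butyrophilin family and its relatives were listed, and 0 passed. Btn2a2, which lies next to Btn1a1, was at 0.86 ± 0.44 (SE, DESeq2 adjusted p = 0.546) with a mean level of 30.8 normalized counts in the authors' deposited table, and it was the one member of the list with an unadjusted DESeq2 p under 0.05. The most abundant was Vtcn1, an inhibitory ligand of T cells, at -0.42 ± 0.29 (DESeq2 adjusted p = 0.739) in the authors' deposited table.

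Xdh encodes the enzyme that makes uric acid in purine breakdown and also serves, without its enzyme activity, in fat secretion. Its mean level was 3896 normalized counts and its log2 fold change 0.15 ± 0.25 (SE, 95 percent interval -0.34 to 0.63, DESeq2 adjusted p = 0.95) in the authors' deposited table. As a fold the interval runs from 0.790 to 1.55. Xdh has the longest exons of the 6 genes, 9175 bases in union, and with 425 per kilobase the lowest mean level on that scale. It lies on chromosome 17 from 73883895 to 73950196, minus strand. Of 18 listed genes of purine metabolism and of making or using the molybdenum cofactor that Xdh needs, 0 passed. At an unadjusted DESeq2 p under 0.05 0 were higher and 2 lower, beside 5.23 and 3.83 percent of all genes. The 2 were Hprt (-0.45 ± 0.17) and Aox1 (-0.60 ± 0.30) in the authors' deposited table.

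Plin2 was the one gene of the 6 with a negative log2 fold change. Perilipin 2 coats lipid droplets in most cells and shields them from lipases. Its gene had a mean level of 3716 normalized counts, or 1058 per kilobase, in the authors' deposited table, whose log2 fold change for it is -0.28 ± 0.19 (SE, 95 percent interval -0.65 to 0.08, DESeq2 adjusted p = 0.728, unadjusted p = 0.131). As a fold the interval runs from 0.635 to 1.06. Plin2 lies on chromosome 4 from 86648386 to 86670060, minus strand. The upper bound for Plin2 lies under the lower bounds of Muc1, Muc15, Mfge8 and Btn1a1, while the interval of Xdh overlaps those of all the other 5 genes. The differences between the genes' fold changes were not tested, since the estimates come from the same libraries.

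Calls among the perilipin relatives and the lipid pathways were confined to the list of fatty acid synthesis and supply. Of 18 listed lipid droplet genes other than Plin2, 0 passed. A negative log2 fold change was found for 14 of the 18, while 48.8 percent of all genes had a positive one. At an unadjusted DESeq2 p under 0.05, 0 were higher and 2 lower, beside 5.23 and 3.83 percent of all genes. The 2 were Hilpda (-0.52 ± 0.17) and Fitm2 (-0.77 ± 0.35) in the authors' deposited table. Plin3 (-0.13 ± 0.18), Plin4 (-0.45 ± 0.53) and Plin5 (-0.01 ± 0.54), the other listed perilipins, did not pass by the authors' deposited table. The list's highest mean levels were those of Rab18, a droplet GTPase (-0.19 ± 0.15), and Pnpla2, the adipose triglyceride lipase gene (-0.12 ± 0.16), in the authors' deposited table. Of 15 listed genes of triglyceride synthesis 0 passed, also at an unadjusted DESeq2 p under 0.05, with a median log2 fold change of -0.24. Dgat2, of the last step (-0.61 ± 0.34), and Lpin2 (-0.57 ± 0.71) were its most abundant in the authors' deposited table. Of 28 listed genes of fatty acid synthesis and supply 1 rose and 1 fell, beside 0.808 and 0.275 percent of all genes. Acsl1, which activates fatty acids, rose (1.04 ± 0.24, DESeq2 adjusted p = 0.00358) in the authors' deposited table. Srebf1, a regulator of lipid synthesis, fell there (-0.74 ± 0.18, DESeq2 adjusted p = 0.00801). At an unadjusted DESeq2 p under 0.05, 2 of the 28 were higher and 3 lower, beside 5.23 and 3.83 percent of all genes. The median of that list was -0.08.

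Beyond the 6 genes, other genes of milk fat globule proteins did not pass the DESeq2 adjusted p of 0.05. Of 18 such genes 16 were listed, and 0 passed in either direction. At an unadjusted DESeq2 p under 0.05, 4 of the 16 were higher and 0 lower, beside 5.23 and 3.83 percent of all genes. The 4 were Muc4, the aminopeptidase gene Anpep (0.54 ± 0.19), the phosphate transporter gene Slc34a2 (0.78 ± 0.37) and Ceacam1 (0.39 ± 0.19) in the authors' deposited table. The median log2 fold change of the 16 was 0.12, beside 0.85 for the 6 genes. For Cidea, a droplet protein with a known part in milk fat secretion, the authors' deposited table gives a mean level of 40.8 normalized counts and -0.16 ± 0.50 as the log2 fold change. Cd36, a fatty acid carrier of the globule, was at -0.02 ± 0.33 with a mean level of 317 normalized counts there. The most abundant of this list were Anxa1 (0.20 ± 0.20) and Cd9 (-0.13 ± 0.18) in the authors' deposited table.

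**Figure D3:**
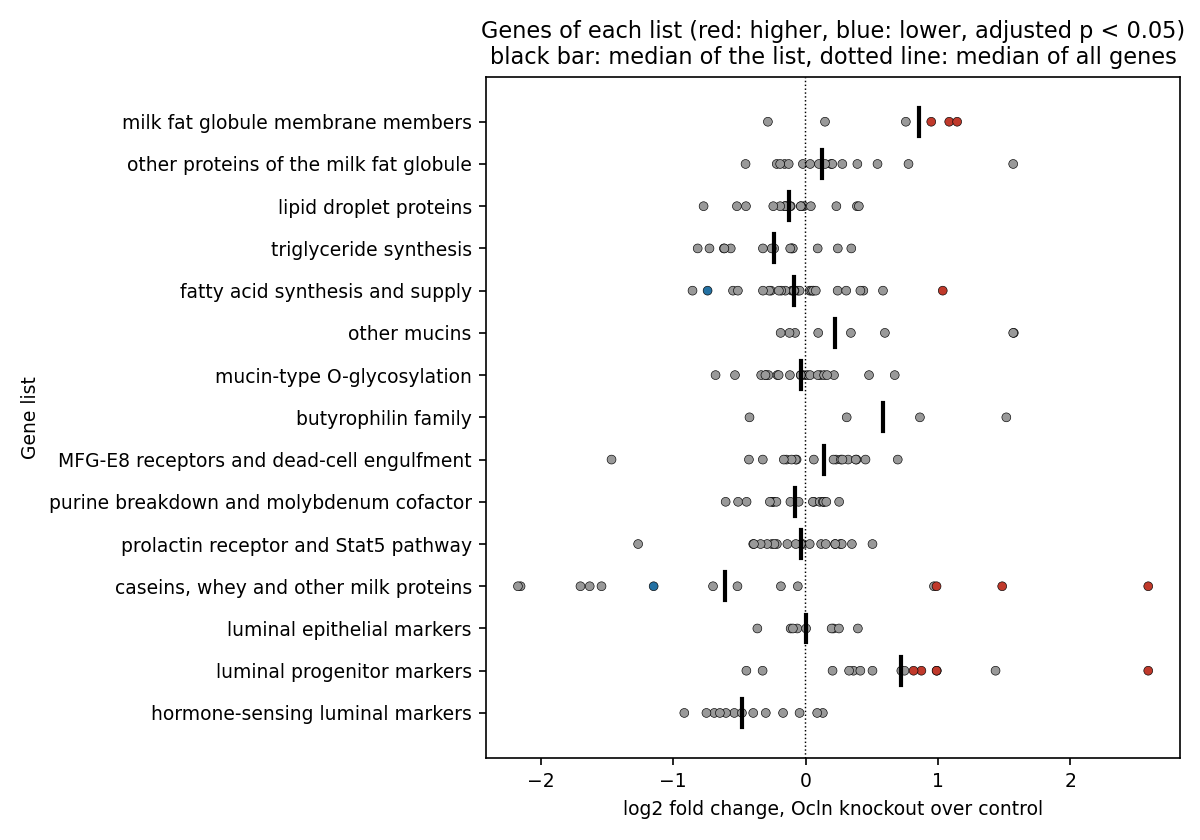
Log2 fold change of knockout over control (x axis) of each listed gene in 15 gene lists (y axis), with a bar at each list's median. The 6 milk fat globule membrane genes have a median of 0.85, the luminal progenitor markers 0.72 and the hormone-sensing luminal markers -0.48, while the lipid lists lie between -0.24 and -0.08.

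Genes of secreted milk proteins were split in direction. Of 14 listed caseins, whey and other milk proteins 3 rose and 1 fell, beside 0.808 and 0.275 percent of all genes. Ltf (2.59 ± 0.29 SE), Trf (0.99 ± 0.26) and the immunoglobulin transporter gene Pigr (1.49 ± 0.34) rose and Csn3 (-1.15 ± 0.31) fell, with DESeq2 adjusted p-values of 1.15e-15, 0.0215, 0.00265 and 0.0246 in the authors' deposited table. At an unadjusted DESeq2 p under 0.05, 4 were higher and 2 lower, beside 5.23 and 3.83 percent of all genes. These include Lyz2 (0.97 ± 0.29) and Csn1s1 (-2.17 ± 0.94), which did not pass. Lyz2 is also counted among the macrophage and myeloid markers below. Of the 14 log2 fold changes 10 were negative, with a median of -0.61. Of 21 listed genes of the prolactin receptor and Stat5 pathway, which drives the casein genes in lactation, 0 passed and the median was -0.04. At an unadjusted DESeq2 p under 0.05 there was 1 higher and 0 lower, beside the same shares of all genes. The one was Elf5, an Ets factor of alveolar cells (0.51 ± 0.17, DESeq2 adjusted p = 0.157), while Prlr (-0.40 ± 0.26) and Socs3 (-0.34 ± 0.32) had the highest mean levels in the authors' deposited table.

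Some markers of luminal progenitor cells rose beside Muc1, Muc15 and Mfge8. Of 15 listed luminal progenitor markers 4 rose and 0 fell, beside 0.808 and 0.275 percent of all genes. Those that rose were Ltf, Trf, Wfdc18 (0.88 ± 0.25 SE, DESeq2 adjusted p = 0.049) and Gabrp (0.82 ± 0.22, DESeq2 adjusted p = 0.0271) in the authors' deposited table. Ltf and Trf are also in the milk protein list above. At an unadjusted DESeq2 p under 0.05, 9 of the 15 were higher and 0 lower, beside 5.23 and 3.83 percent of all genes. The median log2 fold change of the 15 was 0.72, with 13 positive. The sum of their levels corresponds to 113591 normalized counts in controls and 263741 in the knockout, of which Ltf is the largest part. Of 13 listed hormone-sensing luminal markers 0 passed, and the median was -0.48, with summed levels of 237515 and 168952. At an unadjusted DESeq2 p under 0.05, 0 of the 13 were higher and 2 lower, beside the same shares of all genes. Luminal progenitor cells are known to express Mfge8 and other milk genes. The part of either subset in the rise of Muc1, Muc15 and Mfge8 was not tested.

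Markers of other cells had low levels beside the 6 genes. The 13 macrophage and myeloid markers, all listed, summed to 1865 normalized counts in controls and 2732 in the knockout. Their median log2 fold change was 0.44, with 0 passing. At an unadjusted DESeq2 p under 0.05, 2 were higher and 0 lower, beside 5.23 and 3.83 percent of all genes. The 2 were Lyz2, which is also in the milk protein list, and Cx3cr1. Macrophages can express Mfge8 and Plin2. Of 10 adipocyte markers 3 were listed, Lipe, Fabp4 and Pparg, with 0 passing, 0 at an unadjusted DESeq2 p under 0.05 and summed levels of 1502 and 1339, while the defining genes Adipoq, Plin1 and Lep were not in the table, whose lowest mean level is 8.35. The 13 basal and myoepithelial markers summed to 2769 and 2236. Of these, 0 passed as higher and 2 as lower, Oxtr and Lgr5, beside 0.808 and 0.275 percent of all genes. At an unadjusted DESeq2 p under 0.05, 1 was higher, Krt17, and the same 2 lower, beside 5.23 and 3.83 percent of all genes. The median log2 fold change of the 13 was -0.16. The 10 endothelial markers summed to 4640 and 4453, with 0 passing and 0 at an unadjusted DESeq2 p under 0.05. Of 9 listed fibroblast markers, with sums of 2092 and 1782, 0 passed as higher and 1 as lower, Dcn, beside the same shares of all genes. The median log2 fold change of the 9 was 0.01, with 5 positive and 4 negative. The B and plasma cell markers (7 listed) summed to 202 and 668 and the T and NK cell markers (4 listed) to 207 and 309.9. In both, 0 passed and 0 had an unadjusted DESeq2 p under 0.05. The median log2 fold change was 1.58 for the B and plasma cell markers, with 6 positive and a median SE of 1.32. For the T and NK cell markers the median was 0.73, with 4 positive and a median SE of 0.59. The 12 markers of dividing cells summed to 5281 and 2549, with 0 passing. All 12 had negative log2 fold changes, with a median of -1.08, while 48.8 percent of all genes had a positive one. At an unadjusted DESeq2 p under 0.05, 0 of the 12 were higher and 5 lower, beside 5.23 and 3.83 percent of all genes. The part of these cell types in the values of the 6 genes was not tested.

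The fitted error was larger for these genes than for most genes of like level. The SE of Muc1 was 1.70 times and that of Muc15 1.69 times the median SE of the 500 genes nearest to each in mean level. For Xdh, Mfge8 and Btn1a1 the ratios were 1.47, 1.43 and 1.42, and for Plin2 1.12. Against the same 500 genes, the SE of Muc1 stood at percentile 95.4 and that of Muc15 at 92.0, followed by Xdh at 91.2, Btn1a1 at 89.6, Mfge8 at 87.2 and Plin2 at 69.2. Ocln, by contrast, had a ratio of 0.982. Which library carries the spread cannot be read from the table.

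**Figure D4:**
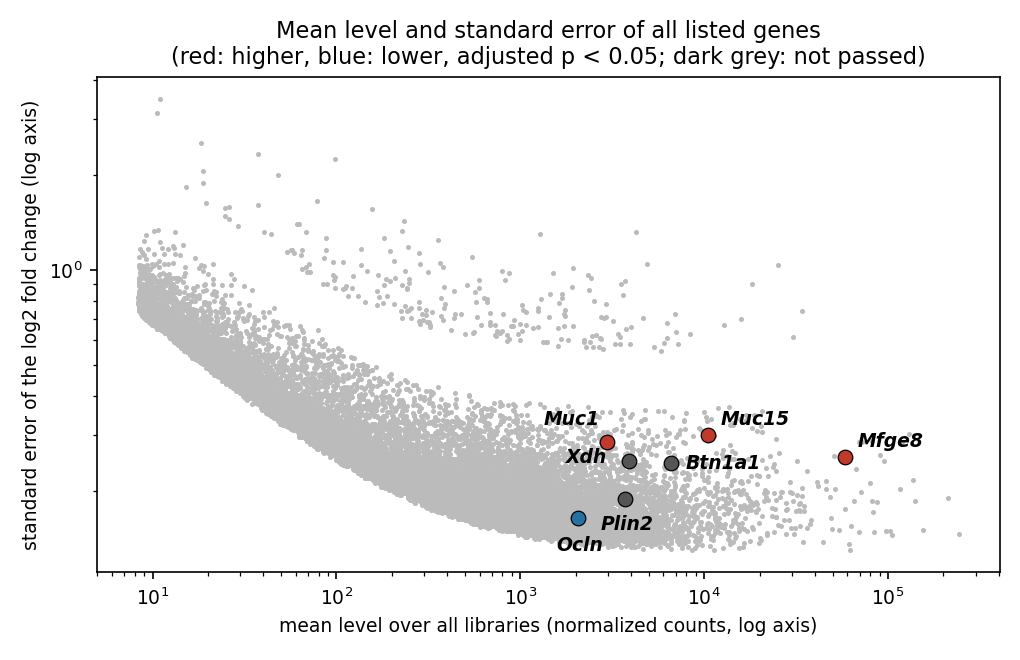
Mean level over all libraries in normalized counts (x axis, log scale) against the SE of the log2 fold change (y axis, log scale) for all listed genes in grey, with the 6 genes and Ocln marked. At their levels most genes have an SE near 0.17, Muc1 and Muc15 stand at 0.29 and 0.30, and Plin2 at 0.19.

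In order of mean level per kilobase, the scale on which genes can be compared, the 6 genes ran from Mfge8 (12384) over Muc15 (2944), Btn1a1 (1604), Muc1 (1255) and Plin2 (1058) to Xdh (425). The spread of these levels over libraries is not in the table, so which neighbours in this order differ beyond it is not known. Exon lengths are those of GENCODE and may not be those the authors counted over. In order of fold the 4 genes with intervals above 0, Muc1, Muc15, Mfge8 and Btn1a1, overlap one another throughout. Summed over the 6 genes the levels correspond to 60918 normalized counts in controls and 110689 in the knockout, a ratio of 1.82 that rests mostly on Mfge8.

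The calls differ in how close they stand to the threshold. The squared Wald scores of all genes had a median 1.18 times that of a chi-square variable, which is their inflation factor. With every score divided by the square root of that factor, Muc1 kept its call (adjusted p = 0.0361), while Mfge8 (0.0766) and Muc15 (0.0931) no longer passed. Under that division 1 of the 6 genes passed. In the other ways of adjusting, Mfge8 and Muc15 passed as in the authors' deposited table and Btn1a1, Xdh and Plin2 did not.

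**Figure D5:**
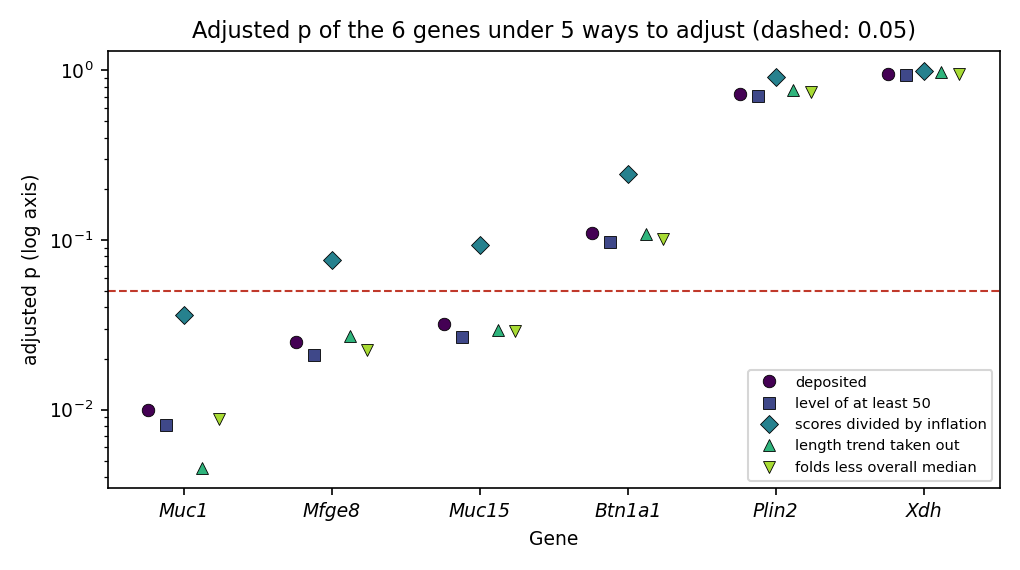
Adjusted p (y axis, log scale, dashed line at 0.05) of each of the 6 genes (x axis) as deposited and under 4 other ways to adjust. Muc1 lies under the line in all 5, Mfge8 and Muc15 cross it when scores are divided by their inflation, and Btn1a1 lies above it in all 5.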

How the data were processed

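Polyadenylated RNA of mammary luminal epithelial cells was sequenced in 3 control and 3 Ocln knockout libraries, per the labels. DESeq2 (no version) and the build mm10, which is GRCm38, come from the submitters' processing notes, and the sources used here do not give the aligner, counter, annotation or model formula. Per the file headers, the authors' deposited table of knockout over control holds, per gene, a signal (mean normalized counts over all libraries), a log2 fold change with its SE, a Wald score, a p-value before and after adjustment and another column with the authors' call. Depth per library is unknown.

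No model was refitted, because values per library were not analysed here, and the test is the authors' DESeq2 test. Computed here (Python 3.11.15, pandas 2.3.3, SciPy 1.17.1) were normal 95 percent intervals from the SE, levels per genotype from the mean and the fold, levels per kilobase of GENCODE exons (97.1 percent of symbols matched), comparisons of SE with the 500 genes of nearest level, and motif matches in RefSeq windows. The adjustment, interval, inflation and length steps were tested on simulated data. Alternatives were a stricter adjusted p, a minimum fold, a minimum level of 50, the authors' calls, division by inflation, removal of the median score in 20 bins of transcript length, and centring.

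The 6 genes and the gene lists were chosen with earlier results of these data known. Genes named are the 6, Ocln, called members of each list (up to 3 in each direction) and those of highest mean level; others, such as list members at an unadjusted p under 0.05, the perilipins, Muc13, Cidea, Cd36, Thbs1 and neighbouring genes, were named after their values were seen.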

Additional observations from a re-analysis of the deposited data

How the results depend on the processing

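No paired analysis was possible because the deposited table holds no values per library. For the same reason no library was left out and no other count model was run. None of the 6 genes changed direction under the 7 alternatives. Over all genes 181 passed, against 107 at an adjusted p of 0.01, 117 when a log2 fold change of 1 or more in size was asked for, 119 after division of the scores by inflation and 466 by the authors' own calls. Of the 6 genes, 3 passed, against 1 at an adjusted p of 0.01 and 1 after the division, Muc1 in both. Mfge8 (log2 fold change 0.95) no longer passed at an adjusted p of 0.01, with the minimum fold, by the authors' calls or after the division, and its adjusted p ran from 0.0211 to 0.0766 over the 4 settings that give a new one. Muc15 (1.09) no longer passed at 0.01 or after the division (range 0.0269 to 0.0931). Muc1 passed under all 7 (0.00453 to 0.0361), and Btn1a1 (0.0972 to 0.245), Xdh (0.933 to 0.996) and Plin2 (0.705 to 0.914) under 0 of them. Apart from the settings that only restate the threshold or the call rule, the cause was not tested. Intervals are not adjusted for the number of genes.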

Other observations

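The genes that lie beside the 6 were looked at after the values were seen, taking the nearest listed gene on each side. Of these 12 neighbours 2 passed, beside 1.08 percent of all listed genes in either direction, and each is the nearest listed gene on one side of a gene that rose. Hapln3, which encodes a hyaluronan link protein, lies 2750 bases from the 3′ end of Mfge8 on the same strand, and its log2 fold change was 1.44 ± 0.36 (SE, DESeq2 adjusted p = 0.00989) in the authors' deposited table, with 163 normalized counts on average. Reads that run on from Mfge8, whose mean level is 58132, and reads of Hapln3 itself cannot be told apart in this table. Bbox1, the gene of the last enzyme of carnitine synthesis, lies 406780 bases from Muc15 on the other strand and was at 1.06 ± 0.26 (DESeq2 adjusted p = 0.00817) in the authors' deposited table. Trim46 lies 796 bases from the 3′ end of Muc1 on the other strand and was at 0.78 ± 0.24 in the authors' deposited table, without passing (DESeq2 adjusted p = 0.0713). The neighbour on the other side of Muc1, Mtx1, was at -0.10 ± 0.17 (DESeq2 adjusted p = 0.95) in the authors' deposited table. Abhd2, on the other side of Mfge8, was at -0.29 ± 0.25 (DESeq2 adjusted p = 0.823) there. Gm13961, on the other side of Muc15, was at 0.31 ± 0.35 (DESeq2 adjusted p = 0.901). Beside Btn1a1, Gm46404 was at -0.83 ± 0.38 (DESeq2 adjusted p = 0.459), opposite in sign to Btn2a2 on the other side. The neighbours of Xdh and Plin2 did not pass.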
